A study of Rattus norvegicus with 4 samples.

Results

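The integrated stress response (ISR) and the cytosolic aminoacyl-tRNA synthetases were examined by ribosome profiling in cultured heart muscle cells after knockdown of Cpeb4. Members were the genes whose symbol in the count files exactly matched a list of 59 symbols, in which synthetases appear under older and newer names. This gave 46 genes out of 22250 in the files, namely 17 synthetase genes and 29 ISR genes. For 11 newer synthetase symbols the files hold only the older one, as with Aars for Aars1, and Nupr1, a stress-induced chromatin protein, was not matched. The listed symbol Mars1 was not matched either, because the files name the methionyl-tRNA synthetase Mars, which is treated below with the other synthetases.

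The cells were ventricular cardiomyocytes of Wistar rats aged 1 to 2 days, enriched on a Percoll gradient. They received a Control siRNA or a CPEB4 siRNA for 72 h, with 2 libraries per group. CPEB4 binds elements in the 3′ ends of mRNAs and acts on their poly(A) tails and translation. The growth protocol also names Torin1, an inhibitor of the mTOR kinase, at 250 nM for 24 h without saying which samples received it, so whether the cells of both groups carried that treatment is not known here. No second siRNA against the target is described, and nothing in the labels ties replicates to separate cultures. The p-values therefore measure the spread between these libraries alone, which may be technical.

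In the ISR, 4 kinases sense different stresses and phosphorylate the initiation factor eIF2, which lowers general translation. Translation of a few mRNAs with upstream reading frames, Atf4 among them, rises under these conditions, and the transcription factor ATF4 then induces amino acid synthesis, amino acid transport and most cytosolic synthetases. Synthetases load amino acids onto tRNAs and are needed in every translating cell. Because mTORC1 also acts on ATF4, the same target genes report on growth signalling as well as on stress.

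A sequence feature that the symbol match did not use is the composite element that ATF4 binds together with C/EBP proteins. Its core was searched as TGATGNAA on both strands in promoter windows from 250 bases before to 50 bases after the annotated start (RefSeq, GRCr8), counting a promoter once however many matches it held. Of the 46 members, 42 had a promoter entry, and Aldh18a1, Dars, Gars and Rars had none. A match lay in 11 of the 42 windows (26.2%), in 6 of 14 synthetase windows (42.9%) and in 5 of 28 ISR gene windows (17.9%). Among all 33469 windows of the same 300 bases the share was 3.98%, and among 9077 windows of genes tested for a footprint change it was 1.96%. The ISR genes with a match were Trib3, Pck2, Slc7a1, Chac1 and Fgf21, and the synthetases were Iars, Cars, Aars, Yars, Nars and Tars. For Asns, whose induction by ATF4 is well known, these letters were not in the window.

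The stretches that follow show the core in 2 synthetase and 3 ISR promoters, because its share was compared between the members and all windows. Each is 30 bases, read 5′ to 3′ on the gene's strand, with the core in capitals; TTNCATCA is the same core on the opposite strand.
Iars: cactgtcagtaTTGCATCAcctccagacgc
Tars: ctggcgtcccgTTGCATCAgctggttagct
Trib3: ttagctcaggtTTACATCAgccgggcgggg
Chac1: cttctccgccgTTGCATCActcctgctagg
Slc7a1: cggcgcgcggcTGATGAAAccggctcggat
In GRCr8 these stretches are chr17:15193658-15193687 (minus strand) for Iars and chr2:62114811-62114840 (minus) for Tars. The ISR stretches are chr3:161275536-161275565 (minus) for Trib3, chr3:126795953-126795982 (plus strand) for Chac1 and chr12:11664447-11664476 (plus) for Slc7a1. The core began 24 bases upstream of the start in Iars, 27 in Tars, 21 in Trib3 and 30 in Slc7a1, and 167 bases upstream in Chac1. In Cars and Yars, not shown, the only match lay downstream of the start. A match describes the sequence and is not evidence of binding. Since the list holds groups of genes that ATF4 induces, a higher share among members is not independent of their choice. The plot of promoter shares sets the members beside the background.

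**Figure D1:**
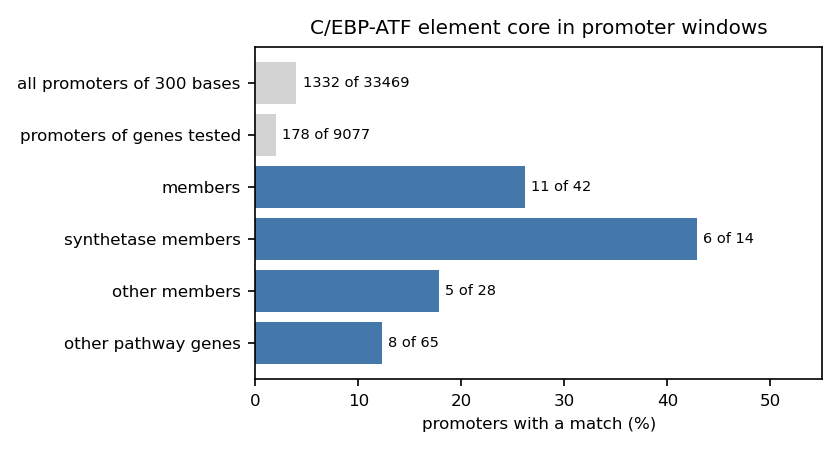
Horizontal bars give the percentage of promoter windows of 300 bases that hold TGATGNAA on either strand, with the count of windows beside each bar; grey bars are all windows and those of genes tested, blue bars are the members and the other pathway genes. The share was 42.9% for synthetases and 26.2% for all members with a window, against 3.98% and 1.96% in the grey bars.

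Across the members as a whole, no footprint change was called after Cpeb4 siRNA. Footprint counts were tested with edgeR's quasi-likelihood test over all 11335 genes that passed a low-count filter, and a gene was called at a Benjamini-Hochberg adjusted p under 0.05. Of the 46 members, 43 passed the filter and 0 were called, where 3.41% of all genes tested were called. With an unadjusted edgeR p under 0.05 there were 4 members (9.30%), Eif2ak2, Atf5, Phgdh and Qars, against 16.1% of all genes. Limma-voom called 0 of the 43, and DESeq2 called 0 of the 35 members to which it gave an adjusted p; it gave none to Chac1, Ddit3, Ddit4, Gdf15, Ppp1r15a, Slc7a11, Stc2 and Trib3. The smallest adjusted p, that of Eif2ak2, was 0.102. The median log2 fold change (siCpeb4 over control) was 0.02, with 25 members above and 18 below 0, and the median over all genes tested was -0.00310. The groups did not overlap in 19 members (44.2%), against 45.4% of all genes.

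Each interval bounds the change of its gene given the spread between these libraries, which may be technical. It does not cover the spread between separate cultures. All 43 members had a 95% interval of the fold change that lay within 2-fold in either direction, and for 32 of them (74.4%) it lay within 1.5-fold, against 53.9% of all genes tested. In 29 of the 43, the difference between replicates of at least 1 group was larger than the difference between the groups. The same share over all genes tested was not computed, so this count does not set the members apart. The interval bounds rest on the spread that edgeR pools over genes, since each group has only 2 libraries.

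**Figure D2:**
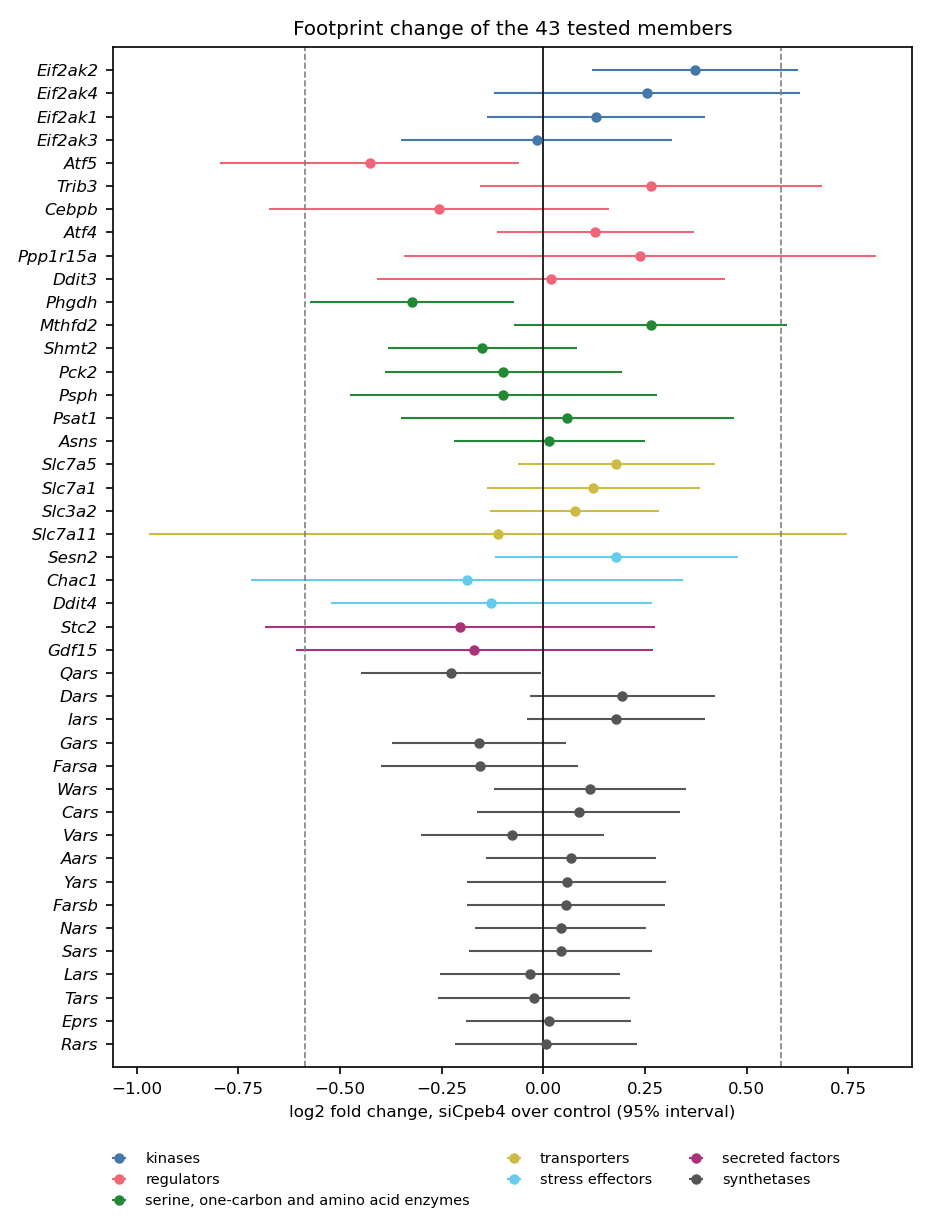
Points are log2 fold changes of footprints (siCpeb4 over control) for each tested member, horizontal lines are 95% intervals from the edgeR fit, and colours mark the role; dashed lines stand at 1.5-fold in either direction. Point estimates run from -0.43 for Atf5 to 0.37 for Eif2ak2, and 32 of the 43 intervals lie inside the dashed lines.

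Levels below are given in CPM, counts scaled to the normalised size of each library, for control replicates 1 and 2 and then for siCpeb4 replicates 1 and 2. They are not set against each other between genes, since they depend on the length of the mRNA. Of the 4 eIF2 kinases, Eif2ak2 (ENSRNOG00000048315) showed the largest difference. It encodes PKR, which is activated by double-stranded RNA and induced by interferon. Its level was 96.0 and 83.6 CPM in controls and 107 and 127 CPM after Cpeb4 siRNA, so both siCpeb4 libraries lay above both controls. The log2 fold change was 0.37 ± 0.12 (SE), or 1.296-fold with a 95% interval of 1.09 to 1.54 (edgeR adjusted p = 0.102). Over the alternatives its adjusted p ran from 0.046 without siCpeb4 replicate 1 to 0.50 without control replicate 2.

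The amino acid sensor GCN2, encoded by Eif2ak4, measured 19.0 and 23.5 CPM in controls and 24.96 and 25.1 CPM after siRNA, without overlap. Its log2 fold change of 0.26 ± 0.18 did not pass (edgeR adjusted p = 0.536). The haem-regulated kinase gene Eif2ak1 had 60.0 and 73.3 CPM against 68.3 and 76.1 CPM, and its groups overlapped. Eif2ak3, which encodes the endoplasmic reticulum sensor PERK, had 29.3 and 27.2 CPM against 28.4 and 27.7 CPM. Its log2 fold change of -0.02 ± 0.16 was the smallest of the kinases.

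Atf4 itself (ENSRNOG00000017801) did not pass. It had 101 and 87.6 CPM in controls and 102 and 105 CPM after siRNA (log2 fold change 0.13 ± 0.12, edgeR adjusted p = 0.650). The siCpeb4 values stood only just above control replicate 1. Atf4 mRNA carries upstream reading frames, and the sources used here do not say whether reads on them were counted. Its count therefore need not follow synthesis of the protein, and the same holds for any other member with such frames. Atf5, a related factor controlled by similar upstream frames, differed in the other direction. Its level was 26.6 and 27.2 CPM in controls and 21.5 and 18.6 CPM after siRNA, and its log2 fold change was -0.43 ± 0.18 (edgeR adjusted p = 0.224). Replicates lay close together and the groups were apart, but the counts were low, between 95 and 155 per library.

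Ddit3, the pro-apoptotic factor CHOP, had 16.3 and 18.3 CPM against 15.1 and 19.4 CPM, so the siCpeb4 libraries enclosed the controls. Its log2 fold change was 0.02 ± 0.21. The pseudokinase gene Trib3, which dampens ATF4 and AKT signalling, had 18.3 and 13.7 CPM against 19.2 and 20.1 CPM (0.27 ± 0.20, edgeR adjusted p = 0.571). Ppp1r15a, which encodes the phosphatase subunit GADD34 that reverses eIF2 phosphorylation, had 7.03 and 7.45 CPM against 7.78 and 9.14 CPM. At 26 to 55 counts per library its interval reached from 0.789-fold to 1.76-fold. Cebpb, a partner of ATF4, had 36.0 and 20.6 CPM in controls and 24.1 and 24.7 CPM after siRNA. Both siCpeb4 values fell between the controls, and the sign of its fold change depended on the libraries used, from -0.56 to 0.25 over the alternatives.

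The enzymes of serine, one-carbon and amino acid metabolism pointed both ways. Phgdh, which catalyses the first step of serine synthesis, had 75.3 CPM in each control and 62.4 and 58.1 CPM after siRNA. Its controls were nearly equal and both siCpeb4 values were lower, with a log2 fold change of -0.32 ± 0.12, but the call was not reached (edgeR adjusted p = 0.169). The later steps of the same pathway did not pass either. Psat1 had a log2 fold change of 0.06 ± 0.20 and Psph one of -0.10 ± 0.18.

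Among mitochondrial one-carbon enzymes, Shmt2, which takes the one-carbon unit from serine, had 120 and 131 CPM against 116 and 110 CPM (-0.15 ± 0.11). Mthfd2, the next enzyme, had 25.2 and 29.5 CPM against 30.7 and 34.2 CPM (0.26 ± 0.16). In both genes the groups were apart, in opposite directions, and neither passed (edgeR adjusted p = 0.561 and 0.452). Asparagine synthetase, Asns, a widely used readout of ATF4 activity, had 100.3 and 97.7 CPM in controls and 96.4 and 104 CPM after siRNA. Its log2 fold change was 0.01 ± 0.11, with a 95% interval of 0.858-fold to 1.19-fold. Pck2, the mitochondrial phosphoenolpyruvate carboxykinase, had a log2 fold change of -0.10 ± 0.14.

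In this group 2 members were below the filter. Cth, which makes cysteine from cystathionine, was counted 4 and 5 times in controls and 0 and 8 times after siRNA. Aldh18a1, which acts in proline synthesis, had 0 counts in all 4 libraries, as had the secreted hormone gene Fgf21. A count of 0 allows up to 3 counts, or 0.498 to 0.859 CPM depending on the library. A listing at 0 need not mean an unexpressed gene here, because Col1a2, an abundant fibroblast collagen gene, was also at 0 in every library while Col1a1 reached 5277 to 8634 CPM.

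Transporters of amino acids differed little. The heavy chain Slc3a2, which carries several light chains to the cell surface, had 280.2 and 284 CPM against 293 and 302 CPM (log2 fold change 0.08 ± 0.10). Its light chain for large neutral amino acids, Slc7a5, had 85.7 and 76.5 CPM against 91.5 and 93.0 CPM (0.18 ± 0.12, edgeR adjusted p = 0.489). Both were without overlap between groups but by small margins. Slc7a1, a transporter of cationic amino acids, had 66.2 and 71.6 CPM against 68.1 and 81.1 CPM. The cystine transporter gene Slc7a11 had only 10 to 31 counts per library and varied more between replicates than between groups, at 5.14 and 2.86 CPM against 2.46 and 5.15 CPM.

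Effectors and secreted factors were likewise not called. Sesn2, a leucine-binding inhibitor of mTORC1, had 35.5 and 32.9 CPM against 38.3 and 39.5 CPM (log2 fold change 0.18 ± 0.14). Chac1, which degrades glutathione and is among the most ATF4-dependent genes, had 9.77 and 11.2 CPM against 9.62 and 8.64 CPM (-0.19 ± 0.26). Ddit4, another inhibitor of mTORC1, had 20.9 and 19.8 CPM against 20.1 and 17.4 CPM (-0.13 ± 0.19). The mTORC1 inhibitors Sesn2 and Ddit4 thus had estimates of opposite sign, each with an interval that included 0.

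Gdf15, a circulating stress hormone, had 18.2 and 14.3 CPM in controls and 14.9 and 14.5 CPM after siRNA (-0.17 ± 0.21). Stc2, a secreted glycoprotein, had 20.2 and 22.3 CPM in controls but 24.1 and 13.1 CPM after siRNA. Its siCpeb4 replicates lay on either side of the controls, and its log2 fold change ran from -0.68 to 0.19 over the alternatives.

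**Figure D3:**
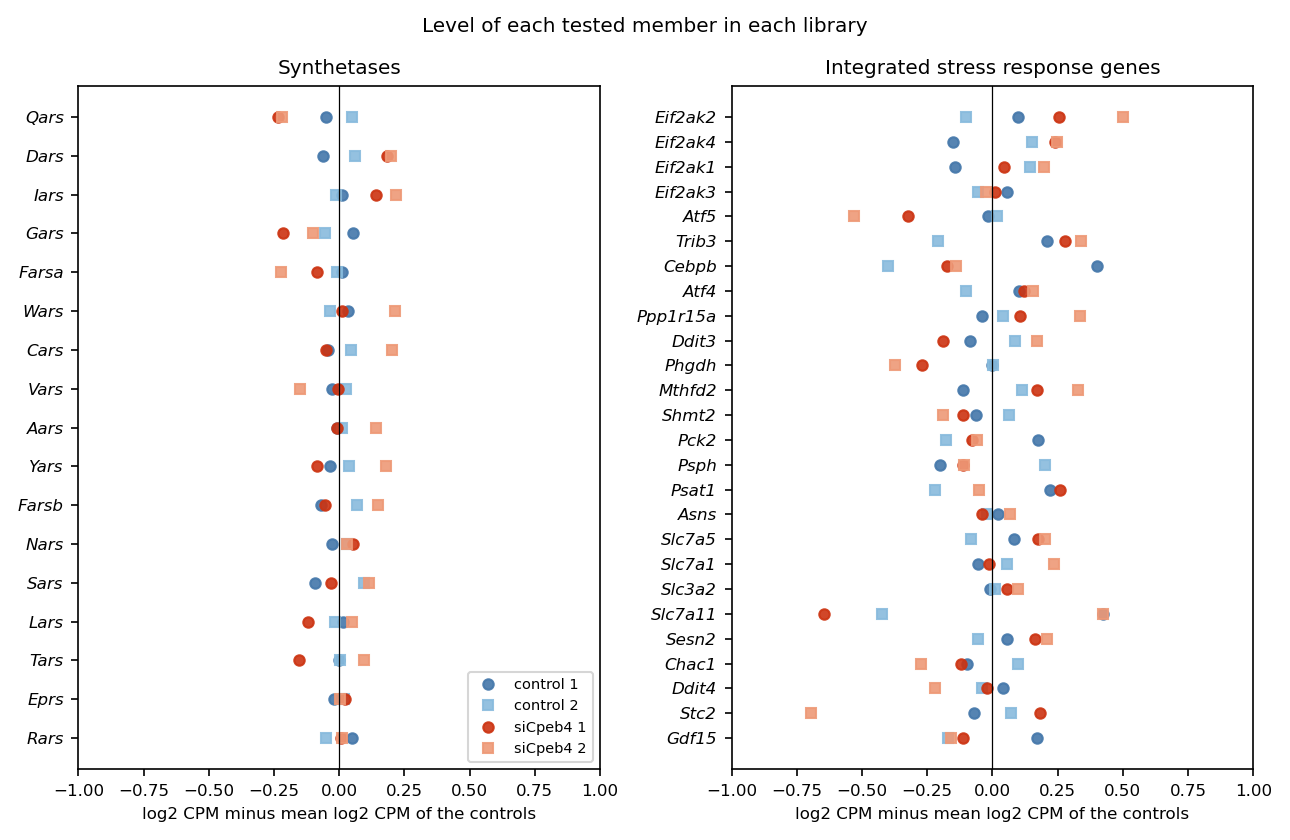
Each row is a tested member, and points give its log2 CPM in each library minus the mean log2 CPM of the controls (blue, control replicates; red and orange, siCpeb4 replicates 1 and 2), with synthetases left and ISR genes right. Synthetase points lie close to 0, whereas Cebpb, Slc7a11 and Stc2 show wide gaps between replicates of a group.

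The 17 synthetases formed the most tightly measured group. Their summed level was 3279.5 and 3341 CPM in controls and 3238 and 3424 CPM after siRNA, so the siCpeb4 libraries stood below and above both controls. The median log2 fold change was 0.04, with 11 genes above and 6 below 0 and a range from -0.23 to 0.19. Without siCpeb4 replicate 2 the median was -0.03, with 6 above and 11 below 0, and without control replicate 1 it was -0.00638, with 8 above and 9 below. With all 4 libraries, the 95% interval of all 17 lay within 1.5-fold, and 0 were called.

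Qars, the glutaminyl-tRNA synthetase, was the lowest, with 166 and 178 CPM in controls and 146 and 148 CPM after siRNA. Its log2 fold change was -0.23 ± 0.11 (edgeR adjusted p = 0.299). Dars, for aspartate, was the highest, with 118 and 128 CPM against 140 and 141 CPM (0.19 ± 0.11, edgeR adjusted p = 0.411). Both belong to the multisynthetase complex, in which several synthetases are held together by scaffold proteins, and in both the groups did not overlap. Iars, for isoleucine and another member of that complex, had 165 and 163 CPM against 181 and 191 CPM (0.18 ± 0.11).

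Gars, for glycine, had 306 and 284 CPM against 254 and 275 CPM (-0.16 ± 0.10). The subunits of the phenylalanyl-tRNA synthetase gave estimates of opposite sign. Farsa had 88.8 and 87.6 CPM against 83.1 and 75.6 CPM (-0.16 ± 0.12), and Farsb had 102 and 112 CPM against 103 and 118 CPM (0.05 ± 0.12). Wars, for tryptophan and also induced by interferon, had 123 and 117 CPM against 121 and 139 CPM (0.11 ± 0.11). Only siCpeb4 replicate 2 stood apart for this gene. Eprs, which joins the glutamyl and prolyl enzymes in one protein, had 499 and 512 CPM against 514 and 507 CPM, a log2 fold change of 0.01 ± 0.10. The other 9 synthetases, Cars, Vars, Aars, Yars, Nars, Sars, Lars, Tars and Rars, had log2 fold changes between -0.08 and 0.09.

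Of the siCpeb4 libraries, replicate 2 gave the higher value in most members. By the median, it was lower than replicate 1 in the stress effectors and secreted factors (log2 difference of replicate 1 minus 2, 0.155 and 0.464). It was the highest of all 4 libraries in 24 of the 43 members (55.8%) and in 10 of the 17 synthetases, against 26.4% of all genes tested. It stood above siCpeb4 replicate 1 in 30 of the 43 members and 13 of the 17 synthetases, against 50.1% of all genes. Against the controls, the median difference of the synthetases was -0.01 and -0.08 in siCpeb4 replicate 1 and 0.10 and 0.07 in siCpeb4 replicate 2. The name of this library's file states footprints of 29 to 33 nt, where the others state 29 to 34 nt. The part of this window in the members' values was not tested.

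Members whose promoter held the C/EBP-ATF core showed no called change. The 10 of them that were tested had a median log2 fold change of 0.06, from -0.19 for Chac1 to 0.27 for Trib3, with 7 above and 3 below 0. The 30 tested members with a promoter window and no match had a median of 0.01. The difference between these medians was not tested.

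Other genes of the pathway were read from 4 lists, in which 71 genes were tested and 2 fell (1.87% of all genes tested fell). The first was Vars2, the mitochondrial valyl-tRNA synthetase. Its level was 24.4 and 30.1 CPM in controls and 16.4 and 12.0 CPM after Cpeb4 siRNA, well apart. Counts were low, between 72 and 142 per library. The log2 fold change was -0.94 ± 0.20, or 0.523-fold with a 95% interval of 0.389 to 0.701 (edgeR adjusted p = 0.0103). The cytosolic enzyme for the same amino acid, Vars, had a log2 fold change of -0.08 ± 0.11, and the difference between these genes was not tested. The Vars2 call ended without control replicate 2 (edgeR adjusted p = 0.079) or siCpeb4 replicate 2 (0.135), with counts thinned to the smallest library (0.0506) and in DESeq2 (adjusted p = 0.0507).

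The second was Aldh1l2, a mitochondrial enzyme that oxidises 10-formyl-tetrahydrofolate and is an ATF4 target. It had 23.8 and 18.04 CPM in controls and 13.5 and 9.30 CPM after siRNA. Its log2 fold change was -0.92 ± 0.23 (edgeR adjusted p = 0.0260). In CPM the siCpeb4 libraries lay below both controls. Counts were low, at 139 and 63 in controls and 66 and 56 after siRNA. This call ended without control replicate 1 (edgeR adjusted p = 0.385) or siCpeb4 replicate 2 (0.228), and with counts thinned to the smallest library (0.122). It was not accompanied by calls in the mitochondrial one-carbon genes Shmt2 and Mthfd2.

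Within the lists, 1 of 17 tested genes listed with the mitochondrial synthetases fell and 0 rose, with a median log2 fold change of -0.03. That list also holds Gatb and Qrsl1, which are not synthetases. Fars2, for phenylalanine, had the next smallest p (-0.43 ± 0.16, edgeR adjusted p = 0.166). Of 31 tested genes listed as further ATF4 targets and partners, 1 fell and 0 rose, with a median of -0.10. An unadjusted edgeR p under 0.05 was found for 9 of these 31 (29.03%), of both signs, against 16.1% of all genes. After Aldh1l2 the smallest p belonged to Sesn3, a relative of Sesn2 (-0.55 ± 0.17, edgeR adjusted p = 0.0846).

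None of 16 tested genes of eIF2, its exchange factor eIF2B, its phosphatase and related regulators was called by edgeR, and 1 had an unadjusted p under 0.05. That gene was Impact, an inhibitor of GCN2, whose log2 fold change was -0.43 ± 0.19 (edgeR adjusted p = 0.254). Eif2s2, the beta subunit of eIF2, had 108 and 105 CPM against 76.7 and 104 CPM, so only siCpeb4 replicate 1 stood low. Of 7 tested further cytosolic synthetases and scaffold genes, 0 were called and 0 had an unadjusted edgeR p under 0.05. The lowest p values were those of Tarsl2, a threonyl-tRNA synthetase paralogue (-0.26 ± 0.17), and the complex scaffold Aimp1 (-0.13 ± 0.11). Mars, the gene listed as Mars1, had 145 and 161 CPM against 171 and 159 CPM, with overlapping groups (log2 fold change 0.11 ± 0.11, edgeR adjusted p = 0.687). Its promoter also held the C/EBP-ATF core, 17 bases upstream of the start, and 8 of 65 windows of these lists did (12.3%).

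**Figure D4:**
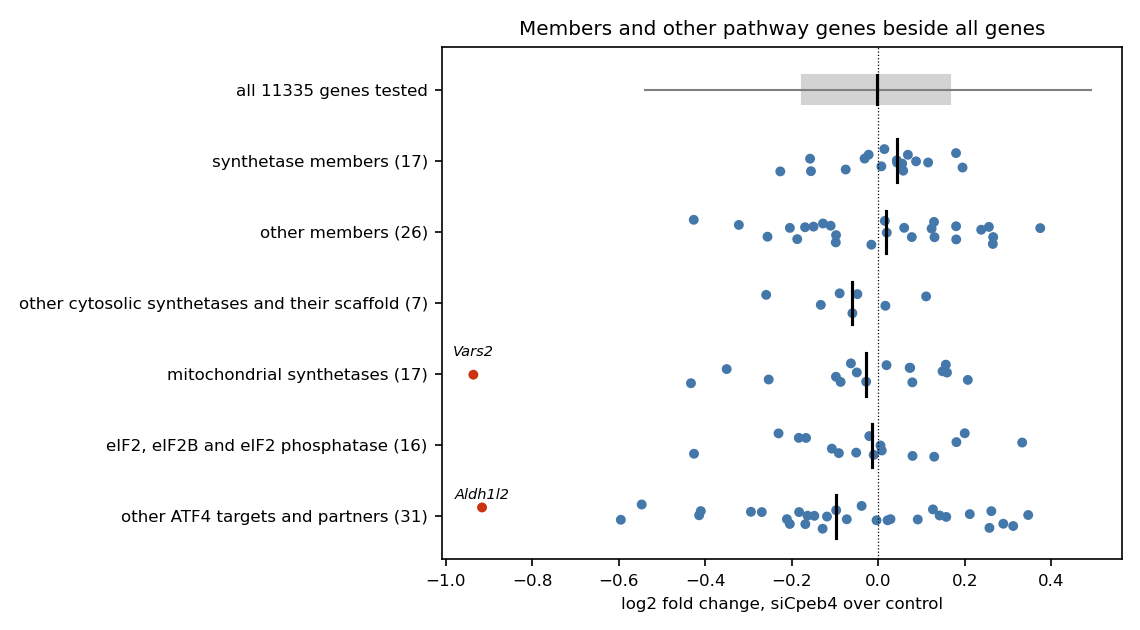
Points are log2 fold changes (siCpeb4 over control) of tested genes in each list, with the number tested in parentheses, black ticks are medians and red points are called genes; the grey box and line give the 25th to 75th and the 5th to 95th percentiles of all genes tested. Called genes appear only in the lists of mitochondrial synthetases (Vars2) and of further ATF4 targets (Aldh1l2), both near -0.9, and the members all lie inside the grey line.

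The libraries held 3554011 to 5910911 counts in genes. The siRNA target Cpeb4 was counted 351 and 253 times in controls and 40 and 59 times after siRNA (log2 fold change -2.86 ± 0.17, edgeR adjusted p = 1.57e-09), and no library went against its label. Of 14 cardiomyocyte markers 13 were found and none was at 0, with summed levels of 85189.7 and 92096 CPM in controls and 95858 and 88402 CPM after siRNA. Fibroblast markers, 11 found of 11 with Col1a2 at 0, summed to 17828 and 16379 CPM in controls and to 12158 and 12030 CPM after siRNA. Of 10 tested, 2 fell (1.87% of all genes tested fell), namely Col1a1 (8634 and 8007 CPM against 6074 and 5277 CPM) and Fn1 (4584 and 4018 CPM against 2359 and 2941 CPM). Together with Col3a1 (3419 and 3363 CPM against 2901 and 2795 CPM), they made up most of the sum. Estimates were negative for 8 of the 10, and positive for Thy1 (log2 fold change 0.21) and Tcf21 (0.10). Endothelial markers, 7 found of 8, summed to 137 to 167 CPM in controls and 136 to 142 CPM after siRNA. For 9 leukocyte markers the ranges were 524 to 728 and 512 to 604 CPM, and for 7 smooth muscle and pericyte markers 5861 to 5986 and 6115 to 6383 CPM, with none at 0. Fewer cells of a type and fewer footprints per cell cannot be told apart in such bulk samples. The part of the lower fibroblast sum in the values above was not tested.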

How the data were processed

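The authors deposited unnormalised counts of footprint reads for each Ensembl gene. Another 5 rows of HTSeq totals were left out. The submitters' processing notes name Bowtie2, STAR 2.7, HTSeq 0.12 and Rnor_6.0. The counted feature and the strand setting are not given in the sources used here, so overlapping and antisense genes and near-identical copies are uncertain. Per the labels' protocols, polysome fractions were digested with RNase I. No mRNA level was set against the footprints, so values do not measure translational efficiency.

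Differential footprints were tested with edgeR 4.0.16 (R 4.3.3): TMM factors, filterByExpr (minimum count 10), group as the only term, two-sided quasi-likelihood F-test, Benjamini-Hochberg adjustment over all genes tested. SE and intervals derive from the F statistic. CPM uses TMM-scaled library totals. Lists are described by counts and medians, without a list test. The workflow was tested on simulated counts with known changes. It called 3 of 50 genes changed 1.3-fold, 29 of 50 changed 1.5-fold and 46 of 50 changed 2-fold. Of all 135 calls, 11 were false. Most changes of 1.3-fold were thus missed in the simulation, in which genes of like level shared the same dispersion. Rates in the real data may differ. Alternatives, described in the closing section, included DESeq2 1.42.0 and limma 3.58.1 (voom).

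Members and lists were chosen with earlier results of these data known. Values by library are given for any called member, the 3 smallest p per role (6 for synthetases), and Atf4, Ddit3, Asns and Ppp1r15a. From each other list come called genes or else the 2 smallest p. Eprs, Farsb, Slc7a11, Eif2ak3, Pck2, Psat1, Psph, Fars2, Sesn3 and Mars are named beyond this rule, after their values were seen. No protein lengths were used, so levels were not ranked between genes. Promoters were matched by symbol or by a synonym of a single gene.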

Additional observations from a re-analysis of the deposited data

How the results depend on the processing

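Each result was recomputed with RLE and upper-quartile factors, no filter on counts, a filter of 30 counts in 2 libraries, DESeq2, limma-voom, robust edgeR, the replicate number as a block, counts thinned to the smallest library, and each library left out; with 1 library left out, its partner is assumed to vary like the other group. The number of members called was 0 in all of these except without siCpeb4 replicate 1, where it was 1 (Eif2ak2, higher, edgeR adjusted p = 0.046), a range of 0 to 1 over left-out libraries. At an adjusted p under 0.10 the edgeR test as reported called 0 members, and Eif2ak2 also passed 0.10 with upper-quartile factors (0.084), no filter (0.058), robust edgeR (0.074) and a crossed replicate block (0.064). The median of all members ran from -0.0101 to 0.0975 over left-out libraries, that of the synthetases from -0.0306 to 0.0975 and that of the ISR genes from -0.00428 to 0.0856. Of the 43 members, 21 changed sign in at least 1 of 14 alternatives (13 for the 8 members without a DESeq2 adjusted p), none while called. Genes called over the whole table numbered 606 without the filter, 192 in DESeq2 and 629 at an adjusted p under 0.10, against 386, and 212 to 318 with a library left out. In the other pathway lists the count was 4 without the filter (Vars2, Aldh1l2, Sesn3, Bcat1, all lower), 0 in DESeq2, which gave no adjusted p for Aldh1l2, 0 after thinning and 1 to 2 with a library left out. Without siCpeb4 replicate 2 the 1 gene called was Bcat1 (edgeR adjusted p = 0.0223), and neither Vars2 nor Aldh1l2 was. With the replicate block, 0 members, 2 other pathway genes and 403 genes in all were called and the members' median was 0.01. Replicate differences of the 2 groups were weakly and negatively correlated over genes (r = -0.11). With 2 libraries per group, this value cannot decide whether the numbers pair the samples. A crossed pairing, added after seeing this, called 0 members and 481 genes in all.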

Other observations

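Other genes listed as further ATF4 targets and partners had an unadjusted edgeR p under 0.05 but were not called. They are given here as values chosen after they were seen. Lower after Cpeb4 siRNA were Bcat1, the cytosolic branched-chain aminotransferase, at 92.6 and 84.8 CPM in controls against 56.5 and 76.7 CPM (log2 fold change -0.41 ± 0.14; edgeR adjusted p = 0.106, and 0.0223 without siCpeb4 replicate 2), and the quinone reductase gene Nqo1, at 35.7 and 45.3 CPM against 24.6 and 34.9 CPM. In both, the siCpeb4 replicates lay far apart. The proline synthesis gene Pycr3 (-0.29 ± 0.14) and Slc7a3, a cationic amino acid transporter (-0.60 ± 0.28), also had negative estimates.

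Higher were Slc1a4, a transporter of alanine, serine and cysteine, at 88.8 and 92.8 CPM against 104 and 113 CPM (0.26 ± 0.11), and Vldlr, a lipoprotein receptor, at 151 and 142 CPM against 183 and 176 CPM (0.29 ± 0.11). Herpud1, which acts in degradation at the endoplasmic reticulum, had 209 and 249 CPM against 292 and 254 CPM (0.26 ± 0.11), so siCpeb4 replicate 2 stood only just above the higher control. The promoters of Slc1a4 and Herpud1 held the C/EBP-ATF core, 235 and 184 bases upstream of the start, and that of Vldlr did not.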
